A study of Mus musculus with 15 samples.

Results

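Contacts of the α-globin promoters were compared between erythroid cells lacking the enhancers R1 and R2 together and cells lacking either one alone, to ask whether the loss in the pair exceeded the sum of the losses in the singles. The comparison used 8 of the 15 samples of the series: 3 libraries of the double deletion (R1R2_KO), 1 library lacking R1 (R1_KO), 1 library lacking R2 (R2_KO) and 3 control libraries. These were chosen by their labelled genotype. The deletions of R3, Rm and R4, with 1 library each, served only to show where other single deletions lay in the same tables.

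All samples used were mouse fetal liver cultures of the strain labelled F1 C57Bl6 / CBA. Livers of E12.5 embryos were dissociated and the cells grown 5 to 7 days with Epo, SCF and dexamethasone. Mature red cells were then removed with Ter119 beads, and the rest spent 18 hours in medium with high Epo to differentiate. The controls carry no deletion in the labels, and the sources used here do not give the zygosity of the deletions. Contacts were measured by NG Capture-C, in which chromatin is cut with DpnII, neighbouring fragments are ligated, and products of chosen promoters are enriched with oligonucleotides. The files hold contacts and no RNA, so erythroid identity was not checked against marker genes.

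In the mouse, Hba-a1 and Hba-a2 encode the adult α chains of haemoglobin and are switched on in maturing red cells by a cluster of upstream elements named R1, R2, R3, Rm and R4. R1, R2, R3 and Rm lie within introns of the neighbouring gene Nprl3, and R4 lies between that gene and the globin genes. R1 and R2 are known as the elements of this cluster with the most enhancer activity. In erythroid cells the elements and the promoters fold together, and capture from the promoter reads out that folding as ligation products.

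Hba-a1 and Hba-a2 arose by duplication, and the deposited tables treat their promoters as 1 viewpoint, called Hba here. The 250 bases before the start of Hba-a1 are shown because this promoter is part of the Hba viewpoint. They were taken from RefSeq (GRCm38.p6, plus strand, chr11:32283422-32283671, a build other than that of the counts). Capitals mark the matches of 3 motifs, which are spelled out beneath the sequence and were searched on both strands, as was the DpnII site.
Hba-a1: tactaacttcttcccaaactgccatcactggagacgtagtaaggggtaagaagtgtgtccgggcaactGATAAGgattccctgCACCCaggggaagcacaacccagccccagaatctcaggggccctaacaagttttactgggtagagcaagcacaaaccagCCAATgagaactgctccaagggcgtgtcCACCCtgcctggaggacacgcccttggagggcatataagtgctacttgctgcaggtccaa
The window of Hba-a2 shared an unbroken run of 247 bases with this one, shifted by 3 bases, so contacts of the 2 genes cannot be told apart over this stretch. GATAAG, a motif of GATA factors, began 182 bases before the Hba-a1 start. It was present in 6.55% of 32851 promoter windows of the same length. The motif CACCC, which KLF factors bind, began 167 and 60 bases before the start and occurred in 52% of the windows. The CCAAT box began 88 bases before the start, and 33.8% of windows held such a match. The DpnII site GATC was not in the window, and 41.9% of all windows held it. These matches describe the sequence and are not binding sites shown by these data.

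The 4 targets, in mm9 on chromosome 11, were R3 (32155867 to 32157248, 4 DpnII fragments), Rm (32164968 to 32166169, 3 fragments), R4 (32168682 to 32169921, 4 fragments) and the block of α-globin genes (32170702 to 32204979, 53 fragments). A contact level was the number of Hba reads in the target per 100000 reads on chromosome 11 more than 2 kb from a viewpoint. The singles are held in other tables than the pair and the controls. Each level was therefore taken as a log2 value and set against a reference term from the same library. That term was the mean log2 level of 2 regions that no deletion touches, the β-globin control region seen from Hbb (the adult β-globin promoters) and the region upstream of Slc25a37 seen from that promoter. Slc25a37 carries iron into the mitochondria of maturing red cells. The control mean was then set to 0, and this value is called the referenced log2 contact below. A sum of singles adds the referenced log2 values of R1_KO and R2_KO, so it equals the product of their remaining contact.

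Several features of the libraries bear on every result. The control and R1R2_KO libraries held 66880 to 138216 Hba reads, and the single deletions were deeper, with 713934 reads in R1_KO and 386214 in R2_KO. At Hbb, R1R2_KO library 1 stood apart from its replicates, with a chi-square over its degrees of freedom of 7.04 and 6.37 against 1.73 between libraries 2 and 3. Against the control mean, the reference term was at -0.32 (log2) in R1_KO, 0.07 in R2_KO and -0.15 ± 0.08 (SD, n = 3) in R1R2_KO, against an SD of 0.10 among controls. The term therefore moved the singles in opposite directions. Its Hbb part was 21404 per 100000 reads in R1_KO and 28526 in R2_KO, against 25727 ± 1580 in controls and 23774 ± 1722 in R1R2_KO (SD, n = 3 each). Its Slc25a37 part was 29228 in R1_KO and 38138 in R2_KO, against 38284 ± 3215 in controls and 33526 ± 1364 in R1R2_KO (SD, n = 3 each).

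The deleted elements themselves gave a check of the labels. The R2 block (32150268 to 32151881) kept 18.1% of the referenced control contact in R2_KO and 12.8% ± 1.47 in R1R2_KO (SD, n = 3). The R1 block (32144385 to 32146566) kept 27.8% ± 1.54 in R1R2_KO (SD, n = 3) but 52.5% in R1_KO, or 41.9% without the reference term. The library labelled R1_KO thus had less depletion of R1 than any of the 3 pair libraries, which kept 26.5%, 29.5% and 27.4%. Both blocks had been set as the fragments low in their own single deletion, so the depletion there is a description and no test. R1 in R2_KO (109%) and R2 in R1_KO (103%) were near the control level on the referenced scale. Without the reference term they were at 115% and 82.1%. Whether incomplete depletion in R1_KO contributed to the comparison was not tested.

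**Figure D1:**
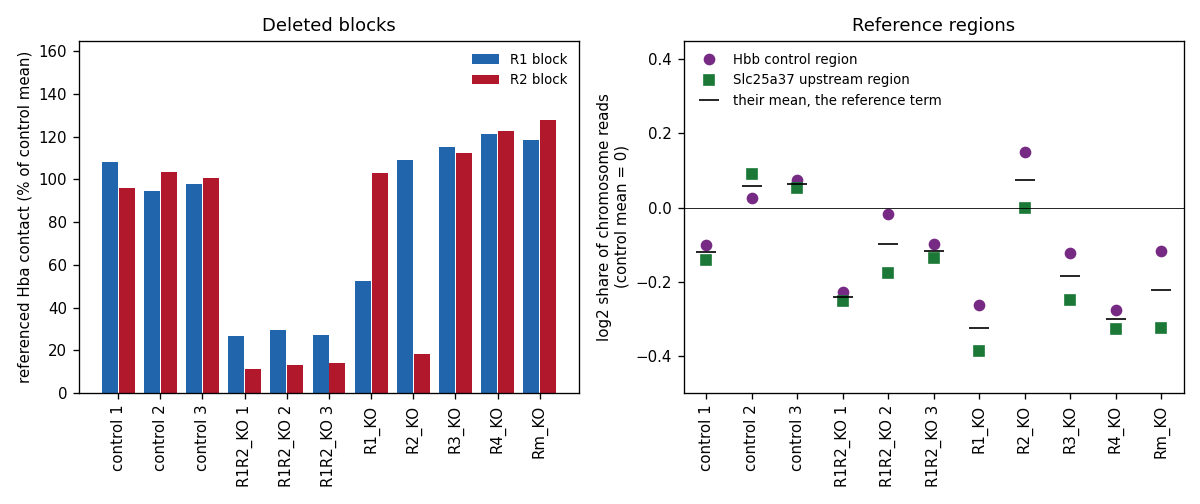
Left, referenced Hba contact with the R1 and R2 blocks in each library, as a percent of the control mean (bars from 0). Right, log2 share of chromosome reads in the Hbb and Slc25a37 reference regions, with the control mean at 0 and a dash for their mean; R1_KO kept 52.5% of R1, and its reference term was the lowest of all libraries shown, at -0.32.

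R3, the third element of the cluster from the upstream end, lost contact in the pair. On the referenced scale with control as zero, neither single passed there. Raw levels were 1350, 1376 and 1403 reads per 100000 in the controls and 813, 958 and 942 in R1R2_KO. They were 1046 in R1_KO and 1352 in R2_KO. Every pair library was below every control and below both singles, and R2_KO lay within the control range. On the referenced scale the pair was at -0.52, -0.42 and -0.43, against 0.09, -0.06 and -0.03 in the controls, -0.07 in R1_KO and -0.10 in R2_KO. Contact with R3 fell by 0.46 on the log2 scale in the pair (SE 0.09, edgeR quasi-likelihood adjusted p = 2.07e-05), which left 72.9% ± 2.66 of the control contact (SD, n = 3). The singles together predicted 88.8%. Without the reference term R1_KO was lower than control, at -0.40 (edgeR adjusted p = 0.0127). The pair was 0.29 below their sum (log2 difference -0.29, 95% interval -0.62 to 0.04, edgeR adjusted p = 0.131), which missed the threshold of 0.05.

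Rm, a weaker element nearer the genes, showed a wider gap. Levels were 1205, 1216 and 1328 per 100000 in the controls, and 764, 927 and 889 in R1R2_KO. R1_KO had 1044 and R2_KO 1370. R1_KO was lower than the controls on this raw scale and R2_KO was higher, while all 3 pair libraries were lower than both. After referencing, the pair was at -0.47, -0.33 and -0.37, against control values of 0.07, -0.10 and 0.03. R1_KO was at 0.07 and R2_KO at 0.06. The pair kept 76.3% ± 3.71 of the control contact (SD, n = 3), where the singles together predicted 109%. The pair lay below the sum by a log2 difference of -0.52 (95% interval -0.83 to -0.21, edgeR adjusted p = 0.00367).

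R4, the element closest to the globin genes, had the lowest mean of the 4 targets in the pair. The controls held 1855, 2389 and 2425 reads per 100000, R1R2_KO held 1179, 1287 and 1372, R1_KO held 1758 and R2_KO held 2403. Control 1 was well below the other controls, and no pair library overlapped with a control. R1_KO was below every control on this raw scale, and without the reference term its difference from control was -0.34. The referenced values were -0.13, 0.06 and 0.07 in the controls, -0.66, -0.68 and -0.57 in the pair, -0.0032 in R1_KO and 0.05 in R2_KO. The pair kept 64.3% ± 2.74 of the control contact (SD, n = 3) against 103% predicted by the singles. Its distance from the sum was -0.68 (95% interval -1.14 to -0.22, edgeR adjusted p = 0.00867).

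The α-globin gene block holds the viewpoints, the embryonic gene Hba-x, Hba-a1 and Hba-a2. Reads per 100000 were 21134, 22938 and 24251 in the controls, 16026, 17653 and 17125 in R1R2_KO, 23107 in R1_KO and 24485 in R2_KO. Before referencing, R1_KO thus lay within the control range and R2_KO just above it. On the referenced scale the controls were at 0.02, -0.05 and 0.03, the pair at -0.26, -0.27 and -0.29, R1_KO at 0.35 and R2_KO at 0.03. The rise in R1_KO therefore came with its low reference term: without that term its difference from control was 0.02 (edgeR adjusted p = 0.820). The pair kept 82.7% ± 0.850 of the control contact (SD, n = 3), where the singles together predicted 130%. This gave a difference from the sum of -0.65 (95% interval -0.80 to -0.51, edgeR adjusted p = 1.38e-10).

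**Figure D2:**
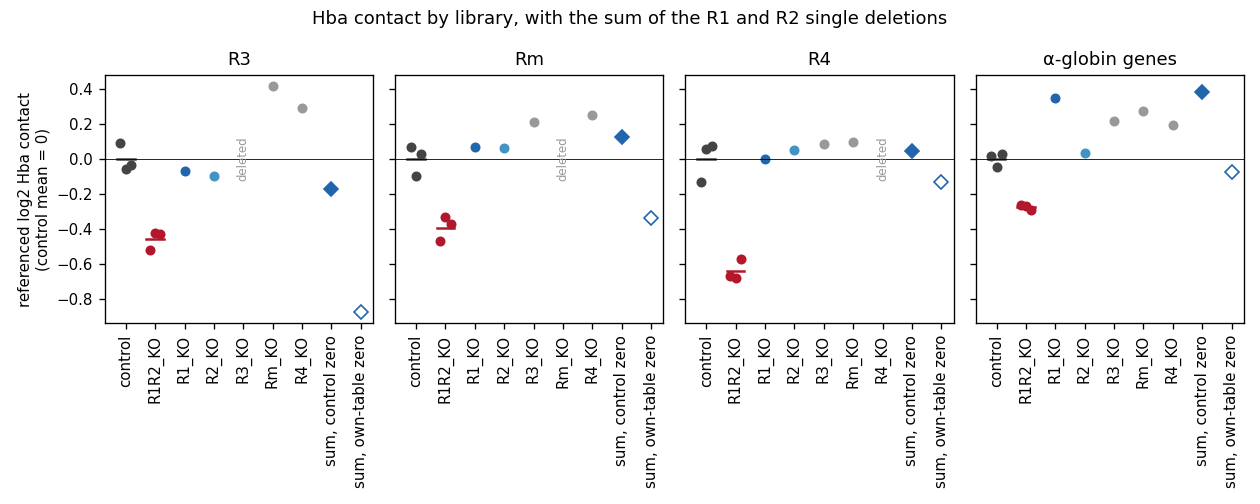
Referenced log2 Hba contact with R3, Rm, R4 and the α-globin genes in each library (points; bars are group means, control mean at 0). Filled diamonds are the sum of R1_KO and R2_KO measured from control and open diamonds the same sum measured from the other single deletions of their table; all 3 pair libraries lie below the filled diamond at each target, and at R3 all lie above the open one.

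Measured from control, 3 of the 4 targets thus passed as lower in the pair than the sum of the singles, and so did 40.0% of all 10 regions tested (4 regions, none of them called higher). Against control, the fitted differences in the pair were -0.40 at Rm, -0.64 at R4 and -0.27 at the α-globin genes, with edgeR adjusted p = 1.06e-04, 2.00e-05 and 1.85e-08. With R3, all 4 targets were thus lower in the pair than in control, as were 50.0% of the 10 regions. All 3 pair libraries were below the sum at each of the 4 targets, and also below the lower of the 2 singles. Both also held for the remaining fragments of the enhancer cluster. All 3 were below the sum in the regions farther upstream too (31682398 to 32079920), where the difference did not pass. Such counts are therefore not particular to the targets. The edgeR test shares the spread over all regions and rests on 48 degrees of freedom, although regions of a library share its reference term. The very small p-values therefore rest on pooling regions of the same libraries, and no further replicates stand behind them. With limma, which used 11.2 degrees of freedom, the adjusted p of the difference from the sum was 0.119 at R3, 0.0116 at Rm, 0.00382 at R4 and 0.00177 at the α-globin genes. An exact two-sided permutation test of 3 pair against 3 control libraries gave p = 0.1 at each target, the smallest it allows. It gave the same p in every other region, including the flanking regions where the pair was higher. R1_KO and R2_KO have 1 library each and were taken to vary like the replicated groups. Without R1R2_KO library 1, the differences from the sum were -0.25 at R3, -0.48 at Rm, -0.66 at R4 and -0.66 at the α-globin genes.

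No control library lies in the table of the singles, so a difference between tables would enter the comparison with a weight of 2. The other single deletions of that table give a second zero. At R3, Rm_KO and R4_KO were at 0.41 and 0.29. At Rm, R3_KO and R4_KO were at 0.21 and 0.25, and at R4, R3_KO and Rm_KO were at 0.08 and 0.09. At the α-globin genes R3_KO, Rm_KO and R4_KO were at 0.22, 0.27 and 0.19. All these values lie above every control library, on the referenced log2 scale. At R3, Rm and R4, leaving out the single that lacks the element itself, R1_KO and R2_KO were the 2 lowest singles, while at the α-globin genes R1_KO was the highest of 5 singles and R2_KO the lowest.

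Measured from the other singles of their table, R1_KO had a contact difference of -0.42 at R3 (edgeR adjusted p = 0.00164) and R2_KO of -0.45 (edgeR adjusted p = 9.52e-04). At the α-globin genes R1_KO was at 0.12 (edgeR adjusted p = 0.0478) and R2_KO at -0.19 (edgeR adjusted p = 0.00140). At Rm and R4 neither single passed. With this zero the pair no longer passed as below the sum at any target. The difference turned to 0.41 at R3 (95% interval 0.01 to 0.81, edgeR adjusted p = 0.0811), with all 3 pair libraries above the sum. It was -0.06 at Rm (95% interval -0.43 to 0.31, edgeR adjusted p = 0.763), with 2 of 3 pair libraries below the sum. At R4 it was -0.51 (95% interval -1.09 to 0.07, edgeR adjusted p = 0.143), and at the α-globin genes it shrank from -0.65 to -0.20 (95% interval -0.38 to -0.03, edgeR adjusted p = 0.0555), with all 3 pair libraries below it at both. Table and single deletion cannot be told apart in this design. The singles themselves also differ in the element they lack, so the second zero is no control.

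**Figure D3:**
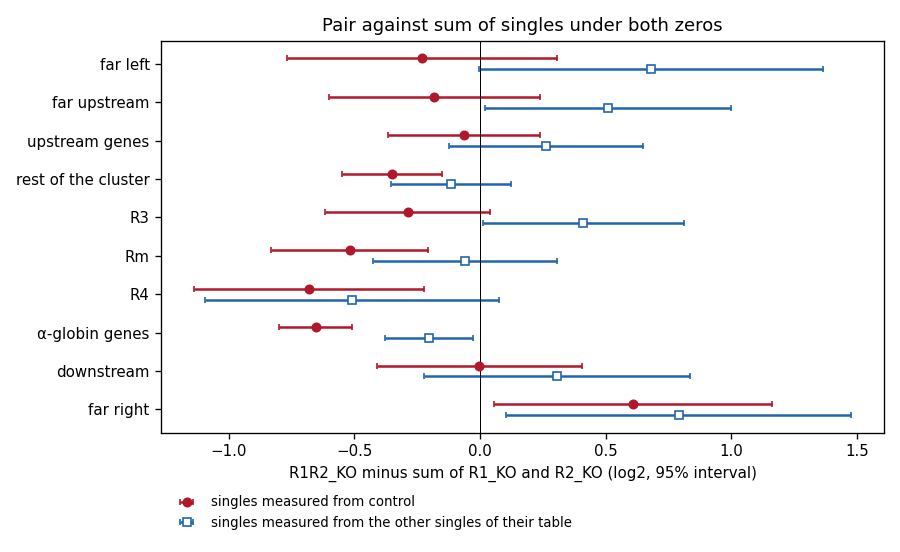
Difference between R1R2_KO and the sum of R1_KO and R2_KO (log2, points with 95% intervals from edgeR) in 10 regions around Hba, with the singles measured from control (filled circles) or from the other single deletions of their table (open squares). Moving the zero shifts every region to the right: R3 goes from -0.29 to 0.41 and the α-globin genes from -0.65 to -0.20.

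Without the reference term the gap between the 2 zeros was narrower at R3, Rm and the α-globin genes. At Rm, R4 and the α-globin genes it also ran the other way, towards a lower value from the other singles. The pair then differed from the sum at the α-globin genes by -0.55 measured from control and by -0.58 measured from the other singles, with edgeR adjusted p = 1.54e-06 and 3.40e-05. At R4 the same differences were -0.58 and -0.83 (edgeR adjusted p = 0.00828 and 0.00476), and at Rm -0.42 and -0.45 (edgeR adjusted p = 0.0556 and 0.147). R3 gave -0.19 and -0.02 (edgeR adjusted p = 0.403 and 0.948). So the α-globin genes and R4 passed under both zeros without the term, and Rm and R3 under neither. Over all settings the adjusted p at the α-globin genes ran from 6.81e-13 to 0.295 and at R4 from 1.32e-04 to 0.231. At Rm it ran from 2.08e-06 to 0.935 and at R3 from 4.35e-04 to 0.948.

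**Figure D4:**
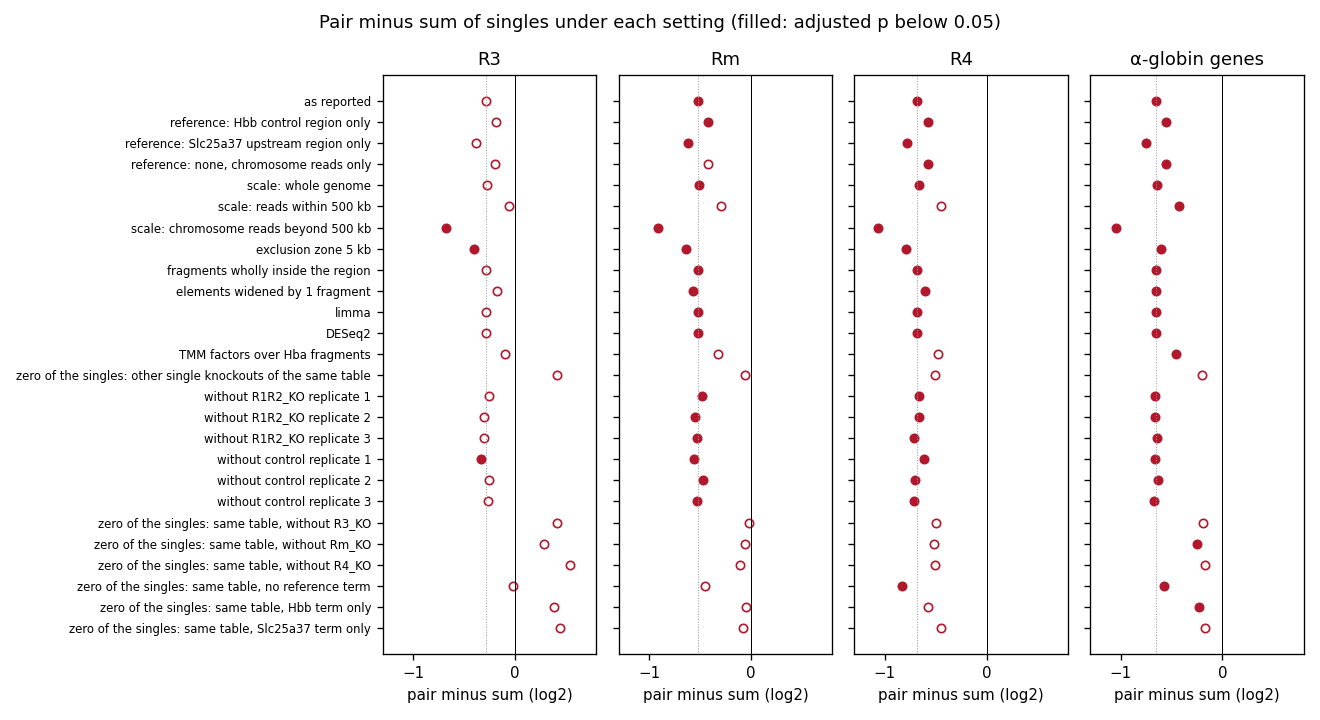
Difference between the pair and the sum of singles (log2) at each target under every setting tried, filled where the adjusted p was below 0.05; the dotted line marks the value reported first. At the α-globin genes all values are below 0, from -1.05 to -0.17, while at R3 they run from -0.68 to 0.54.

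Around the targets, the remaining 55 fragments of the enhancer cluster (32139865 to 32170701, without the 5 elements) were lower in the pair by a log2 difference of -0.55 (SE 0.05, edgeR adjusted p = 3.88e-13). R2_KO was at -0.21 there, which passed with edgeR (adjusted p = 0.0103) and not with limma (adjusted p = 0.106), and R1_KO was at 0.01 (edgeR adjusted p = 0.971). The pair was below the sum by -0.35 measured from control (edgeR adjusted p = 0.00241, limma adjusted p = 0.0531) and by -0.12 measured from the other singles (edgeR adjusted p = 0.358). The cluster fragments include some beside the deleted R1 and R2 blocks. In 5 kb bins there, at -37.5 and -32.5 kb from the first viewpoint, the pair was at -0.94 and -0.90. R1_KO was at -0.42 and -0.06 in these bins, and R2_KO at -0.09 and -0.61. At -22.5 kb, between R3 and Rm, the pair was at -0.29, R1_KO at 0.03 and R2_KO at -0.21. In all 5 flanking regions the pair gained share on the referenced scale. Levels are shares of chromosome reads, so a loss in the cluster by itself raises the shares elsewhere. Whether contact outside the cluster rose beyond that was not tested. The gain was 0.26 over the upstream genes (32080071 to 32139864) and 0.37 downstream (32204980 to 32320310), with edgeR adjusted p = 0.00327 and 0.00201. Without the reference term these were 0.11, which did not pass (edgeR adjusted p = 0.168), and 0.22 (edgeR adjusted p = 0.0110). Farther out the gains were 0.58 (31949955 to 32079920), 0.69 (31682398 to 31949954) and 1.05 (32320311 to 32697687), and without the term 0.42, 0.54 and 0.90, all passing with edgeR. In these farther regions R1_KO was at 0.63, 0.67 and 0.56 on the referenced scale, and R2_KO at 0.13, 0.25 and -0.12. R3_KO, Rm_KO and R4_KO ran from 0.20 to 0.51, 0.39 to 0.53 and -0.06 to 0.29 there. Over the upstream genes and downstream, R1_KO was at 0.29 and 0.47, and R2_KO at 0.04 and -0.09. Against the sum measured from control, the pair was at -0.06 over the upstream genes, -0.0023 downstream, -0.18 and -0.23 in the farther upstream regions, none of which passed (edgeR adjusted p = 0.782, 0.991, 0.534 and 0.534). In the farthest downstream region all 3 pair libraries were above the sum, by 0.61 in the fit (95% interval 0.06 to 1.16), and the edgeR adjusted p of 0.0505 just missed the threshold. Of all chromosome reads, 21.6% to 22.8% lay 10 to 50 kb from a viewpoint and outside the R1 and R2 blocks in the 3 pair libraries. The controls held 30.2% to 31.6%, counted the same way. R1_KO had 26.7% and R2_KO 29.9%, both between the 2 groups, while R3_KO, R4_KO and Rm_KO had 27.2%, 27.1% and 29.7%. Beyond 500 kb and up to 5000 kb the pair held 10.6% to 10.9% and the controls 6.36% to 6.70%. R1_KO and R2_KO held 6.39% and 6.44%, within the control range.

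**Figure D5:**
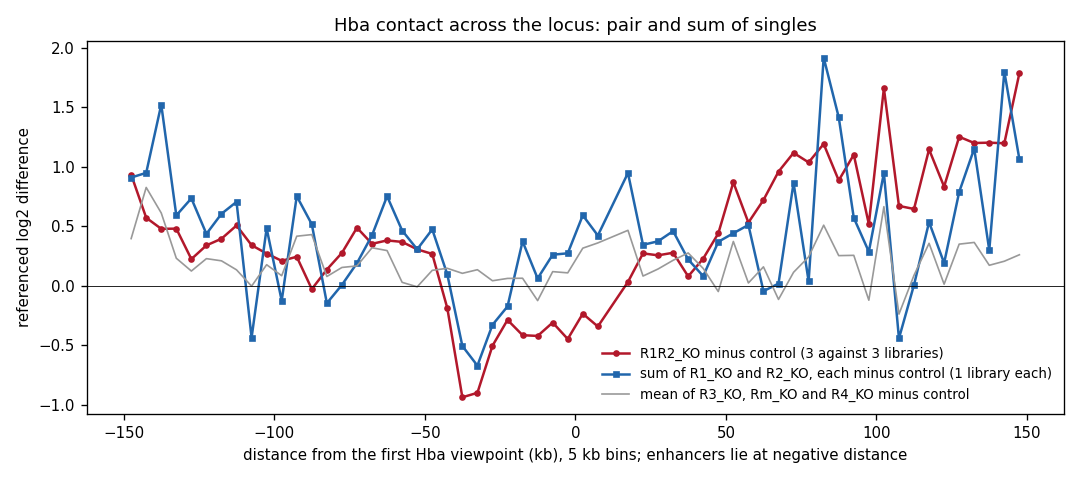
Referenced log2 difference from control in 5 kb bins by distance from the first Hba viewpoint (kb), for the pair, for the sum of R1_KO and R2_KO and for the mean of R3_KO, Rm_KO and R4_KO. The pair runs below the sum from the enhancer cluster to the α-globin genes. Fragments of the deleted R1 and R2 blocks were left out of the bins. The lowest bins of the pair, at -37.5 and -32.5 kb, hold other fragments near these blocks.

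Single DpnII fragments showed how the pair's losses were spread over the targets. Of 660 fragments with at least 90 reads, 77 (11.7%) passed between pair and control, 52 (7.88%) of them lower in the pair and 25 (3.79%) higher. Lower were 3 of 4 fragments of R3, 2 of 3 of Rm, 4 of 4 of R4, 14 of 53 of the α-globin genes and 29 of 54 in the rest of the cluster, with 1 fragment of the α-globin genes higher. Median log2 differences were -0.53, -0.37, -0.64, -0.26 and -0.47 in these groups, against 0.29 over all 660 fragments. The other 24 higher fragments all lay outside the cluster. Without the reference term the split was 83 lower and 14 higher. The count of calls fell from 77 to 48 without R1R2_KO library 1, to 41 without library 3 and to 43 without control 3.

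Against the sum of the singles measured from control, 44 fragments (6.67%) passed, 35 (5.30%) lower in the pair and 9 (1.36%) higher. The α-globin genes held 22 of the lower fragments and 3 of the higher, out of 53 tested. R4 held 2 of 4, Rm 1 of 3 and R3 0 of 4, and the rest of the cluster held 8 lower and 3 higher of 54. The median difference was -0.64 over the α-globin genes, -0.50 at R4, -0.41 at Rm and -0.31 at R3, against -0.17 over all fragments. There were 19 fragments called lower both against control and against the sum. Without the reference term the calls were 19 lower and 9 higher, and with TMM factors 6 lower and 9 higher, so the split of the calls depended on the scale. Measured from the other singles, edgeR called 0 of the 660 fragments, with a lowest adjusted p of 0.216 and 42 fragments at an unadjusted p below 0.05. The corresponding medians were -0.22 over the α-globin genes, -0.51 at R4, -0.07 at Rm and 0.46 at R3, against 0.13 over all fragments.

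Of the 5 fragments furthest below the sum, 3 lay in the cluster or the gene block. The others lay upstream of the cluster. The lowest of all, 31708458 to 31708982, was at -2.99 from the sum, with only 4 to 13 reads in each control and pair library. The fragment at 32096663 to 32098159 was at -1.26, with 20 to 74 reads. In the pair these fragments were at 0.28 and -0.03 from control. Measured from the other singles, their differences from the sum were -1.27 and 0.11. The fragment at 32188926 to 32189416, between the 2 viewpoints, had 549, 534 and 675 reads in the controls, 453, 228 and 235 in R1R2_KO, 3571 in R1_KO and 2278 in R2_KO. It was lower in the pair than in control (log2 difference -0.49, edgeR adjusted p = 7.25e-04) and was at 0.48 in R1_KO and 0.20 in R2_KO, which put the pair at -1.17 from the sum (edgeR adjusted p = 6.32e-05). The fragment at 32200138 to 32200469, beyond the second viewpoint, had another make-up: the pair was at -0.0089 from control (edgeR adjusted p = 0.978), and its difference of -1.20 from the sum came from values of 0.79 in R1_KO and 0.40 in R2_KO. Between Rm and R4, the fragment spanning 32167510 to 32168370 was at -0.32 in the pair (edgeR adjusted p = 0.0906), 0.72 in R1_KO and 0.24 in R2_KO, and at -1.28 from the sum. For all 3, the difference from the sum was called only with control as the zero: with the other singles it was -0.16, 0.03 and -0.52 (edgeR adjusted p = 0.943, 0.998 and 0.786).

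The 5 fragments furthest above the sum had few reads. The first of them, 32204913 to 32204938 at the end of the gene block, had 21, 23 and 18 reads in the controls, 14, 9 and 21 in R1R2_KO, 34 in R1_KO and 5 in R2_KO. Its difference of 5.17 from the sum rested on the low counts of the deeper single libraries, since the pair was at 0.03 from control (edgeR adjusted p = 0.982). The other 4 had 14 to 63 reads in every control and pair library and log2 differences from the sum of 1.69 to 1.92. Measured from the other singles, the first was at 1.46 and the other 4 at 1.32, 1.06, -0.11 and 0.56.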

How the data were processed

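The members of the comparison, the regions and the lists were chosen with earlier results of these data known. The authors deposited raw read counts per DpnII fragment, in mm9, in 1 table per viewpoint for the control and double deletions and another for the single deletions. The submitters' processing notes name Trim Galore and Bowtie, without versions. The tables of the controls each hold columns, 7 in number, that could be tied to no sample and were left unused. The labels call replicates biological but tie none to an animal or day, so a p-value reflects only how these libraries vary.

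Fragments were assigned to regions by midpoint, and reads within 2 kb of a viewpoint were left out. Region sums and fragments with at least 90 reads over 8 libraries entered edgeR 4.0.16 quasi-likelihood fits with group as the only term and the library scale and reference term as offsets, in R 4.3.3. The comparison with the sum was R1R2_KO minus R1_KO minus R2_KO plus control. P-values were adjusted by Benjamini-Hochberg over regions and contrasts, or over fragments within a contrast, with a threshold of 0.05. Fragments of the deleted blocks were not tested. The text describes fragments among the 5 lowest and 5 highest that passed. limma 3.58.1 and DESeq2 1.42.0 were alternatives. The scripts were tested on simulated data with an assumed spread. There the fragment test against the sum recovered 2% of log2 changes of 0.5 and 22% of changes of 1. A fragment without a call may therefore still differ from the sum. PCR reads carry no molecular identifiers. Deviations of same-numbered control and pair libraries correlated at 0.13, 0.11 and 0.06, and those of other combinations at -0.13 to 0.04. The labels tie no control to a pair library, so the main fits did not pair them.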

Additional observations from a re-analysis of the deposited data

Results flagged for a closer look

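The effect of lacking R1 was compared between cells that keep R2 and cells that lack it, which is the same contrast as the pair against the sum of singles, and 3 targets passed the test of that difference. It was -0.52 at Rm (edgeR adjusted p = 0.00367), -0.68 at R4 (edgeR adjusted p = 0.00867) and -0.65 at the α-globin genes (edgeR adjusted p = 1.38e-10), with 3 of 3 pair libraries below the sum at each. Each rests on 1 library of R1_KO and 1 of R2_KO from another table, and none of the 3 passed when all the other single deletions of that table set the zero with the full reference term. The α-globin genes passed again with that zero when Rm_KO was left out, with the Hbb term only and with no term, and R4 passed with no term.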

How the results depend on the processing

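The loss in the pair against control kept its direction and passed the test at all 4 targets under each of 19 alternatives. Its size depended on the scale. The loss was smallest with reads within 500 kb, at -0.33, -0.26, -0.51 and -0.14 at R3, Rm, R4 and the α-globin genes. It was largest with the scale beyond 500 kb, at -0.79, -0.73, -0.97 and -0.61. With the replicate number as a block it was -0.46 at R3, -0.40 at Rm, -0.63 at R4 and -0.27 at the α-globin genes, with 74 fragments called, and the block changed no call at the targets. The numbers pair only by name, although each library correlated best with its own number. Against the sum, R3 passed with the scale beyond 500 kb (-0.68) and a 5 kb exclusion (-0.40); leaving out 1 library gave -0.34 to -0.25 and passed only without control 1. Rm missed the threshold with no reference (-0.42), reads within 500 kb (-0.29) and TMM (-0.32), and R4 with the last 2 of these (-0.45 and -0.48). The zero from the other singles gave 0.41 at R3, -0.060 at Rm, -0.51 at R4 and -0.20 at the α-globin genes. Variants of it were added after seeing the data. Without R3_KO these were 0.41, -0.018, -0.50 and -0.19, without Rm_KO 0.28, -0.060, -0.52 and -0.25 (the last passing), and without R4_KO 0.54, -0.10, -0.51 and -0.17. With the Hbb term only they were 0.38, -0.046, -0.58 and -0.23 (the last passing), with the Slc25a37 term only 0.44, -0.073, -0.44 and -0.17, and with no term Rm missed at -0.45. On a linear scale, the pair minus the sum was -15.7, -32.6, -38.9 and -46.9 percentage points of control at R3, Rm, R4 and the α-globin genes.

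Among the singles, R2_KO at R3 kept its sign under all 19 alternatives and R1_KO at the α-globin genes kept its sign and call under 17 of 19. R1_KO was -0.40 at R3, -0.26 at Rm, -0.34 at R4 and 0.021 at the α-globin genes with no reference. With TMM it was -0.43 at R3, -0.29 at Rm and -0.013 at the α-globin genes. From the other singles it was -0.42 at R3 and -0.16 at Rm. It was also -0.048 at Rm within 500 kb, 0.021 at R3 and 0.089 at R4 beyond 500 kb, and 0.055, 0.051 and 0.033 at R4 with the Slc25a37 term, the whole genome and the 5 kb exclusion; leaving out 1 library gave -0.068 to 0.030 at R4. R2_KO with the Hbb term only was -0.018 at Rm, -0.032 at R4 and -0.044 at the α-globin genes, where the scale beyond 500 kb gave -0.0046. From the other singles it was -0.45, -0.17, -0.039 and -0.19 at the 4 targets, and leaving out 1 library gave -0.016 to 0.082 at R4. Fragments called against control numbered 147 of 198 bins of 5 kb (136 higher), 49 with DESeq2 and 41 to 96 on leaving out 1 library. Against the sum they numbered 10 bins, 15 with TMM, 28 with no reference and 0 with the other singles as zero, where 44 were called at first; leaving out 1 library gave 34 to 52. The cause of these changes was not tested.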
